A study of Homo sapiens with 8 samples.

Results

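NCCIT cells, a human embryonic carcinoma line, were transfected with siRNA, a short double-stranded RNA that degrades a chosen transcript. The siRNA was aimed at TET1 (siTET1), at TET2 (siTET2), at TET3 (siTET3) or at no transcript of the cell (siNTC, the non-targeting control). RNA was measured on Affymetrix Human Gene ST arrays, 2 per group and 8 in all. No group received a further agent, the depletions were transient, and all groups were bulk cultures of a single line. The report follows 10 imprinted genes that lie outside the Prader-Willi locus, of 18420 features fitted: NNAT, BLCAP, INPP5F, H19, IGF2, MEG3, DLK1, PEG3, PEG10 and MEST. They were taken by symbol, and the rule used no measured value, but the list was drawn up with earlier results of these data known. An array of this design groups its probes into transcript clusters, and 7 of the 10 genes had a cluster annotated to that gene alone. The other 3 were read from clusters that carry several symbols: H19 with RPS12, IGF2 with INS and INS-IGF2, and PEG3 with ZIM2. For these the signal of the listed gene cannot be told apart from that of the others.

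Imprinted genes are transcribed mainly from the maternal or the paternal copy, according to DNA methylation that was laid down in the egg or the sperm and is kept at imprinting control regions after fertilisation. NNAT, the short form of INPP5F, IGF2, DLK1, PEG3, PEG10 and MEST are paternally expressed in human or mouse tissues, while H19 and MEG3 are non-coding RNAs of the maternal copy. TET enzymes oxidise 5-methylcytosine and can start its removal, so the question the design puts to these genes is whether their RNA differs when 1 TET is depleted. The arrays measured the RNA of both copies together, and neither the parental copy nor DNA methylation was read here.

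Each siRNA lowered its target. TET1 fell by 0.68 on the log2 scale in siTET1, TET2 by 0.88 in siTET2 and TET3 by 1.08 in siTET3. The other TETs were not all level: TET1 changed by -0.30 in siTET2 and 0.42 in siTET3, and TET2 by -0.47 in siTET3. The siNTC arrays stood apart: they correlated with depletion arrays at r = 0.9893 to 0.9913, against 0.9954 to 0.9977 between different depletions and 0.9976 to 0.9989 between replicates. Every comparison with siNTC uses the same 2 siNTC arrays. All 11 measured pluripotency markers lay above background, the level below which 95% of 341 olfactory receptor genes fell (log2 5.21). Of 11 neuronal markers 6 were above it, of 11 mesendoderm markers 6, of 9 trophectoderm markers 4 and of 10 muscle and fibroblast markers 3. In these bulk samples, fewer cells of a type and less RNA per cell cannot be told apart.

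Of the 10 imprinted genes, 8 lay above background in every group, and their RNA moved in both directions when a TET was depleted. NNAT, BLCAP, PEG10 and MEST were lower than siNTC and INPP5F and DLK1 were higher in siTET1 and in siTET2 (limma, adjusted p under 0.05), and the remaining 4 did not pass. In siTET3 the same direction held for these genes, but MEST missed the threshold, leaving 3 lower, 2 higher and 5 uncalled. Over all features, 18.7% were lower and 15.6% higher in siTET1, 21.8% and 14.4% in siTET2, and 22.3% and 13.8% in siTET3. The median log2 change of the 10 genes was -0.03 in siTET1, -0.06 in siTET2 and -0.04 in siTET3, against -0.03, -0.04 and -0.02 over all features, and over the 8 above background it was -0.18, -0.28 and -0.12. When the mean of the 3 depletions was set against siNTC, 4 genes were lower and 2 higher, against 24.2% and 16.5% of all features. With 10 genes, 1 call more or less moves a share by 10 percentage points, so nothing particular to imprinted genes is read from these counts.

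**Figure D1:**
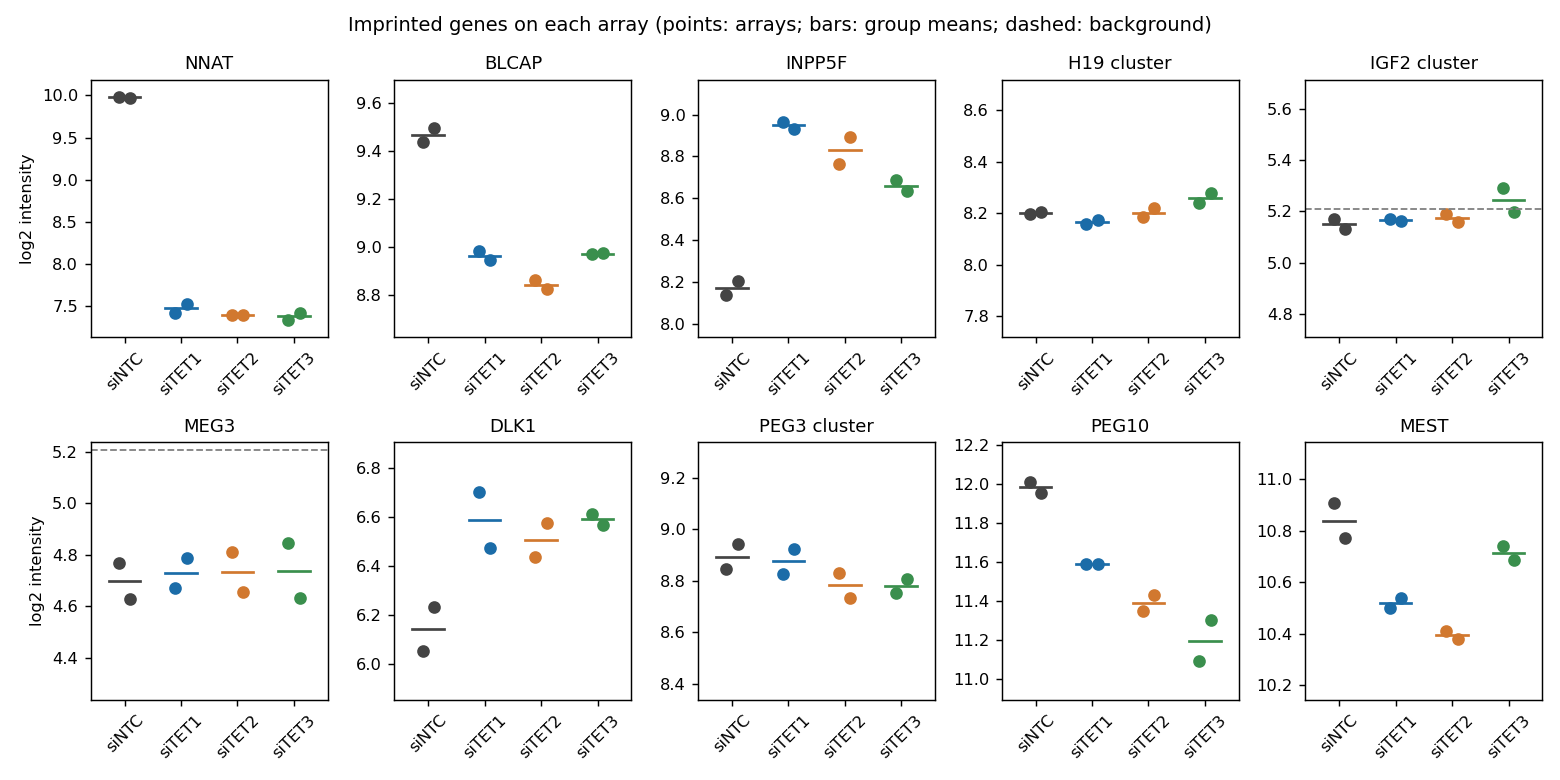
Log2 intensity of the 10 imprinted genes on each of the 8 arrays, with points for arrays, bars for group means and a dashed line at background (5.21). Each panel has its own axis; NNAT lies near 10 in siNTC and between 7.33 and 7.53 in the 6 depletion arrays, while MEG3 stays below background throughout.

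NNAT and BLCAP form 1 imprinted domain on chromosome 20, with NNAT (chr20:37521250-37523690, GRCh38.p14) nested inside BLCAP (chr20:37517417-37527876) and read in the opposite orientation. NNAT encodes neuronatin, a small membrane protein known from brain development and calcium handling. It was at log2 9.99 and 9.97 on the siNTC arrays. The levels were 7.42 and 7.53 in siTET1, 7.39 and 7.39 in siTET2, and 7.33 and 7.42 in siTET3. All 6 depletion arrays lay far under both siNTC arrays, and they spanned 0.20 log2 units among themselves. In siTET1 NNAT kept 17.6% of the level in siNTC, with a 95% confidence interval of 16.0% to 19.5%. The log2 change was -2.50 ± 0.066 (SE, n = 2 arrays per group; limma adjusted p = 7.35e-11). The changes in siTET2 and siTET3 were -2.59 (adjusted p = 4.90e-11) and -2.60 (6.86e-11), with the same SE. It was the widest change among the 10 genes in each of the 3 comparisons. Between depletions the differences were -0.08 for siTET2 against siTET1 (interval -0.23 to 0.06), -0.10 for siTET3 against siTET1 (-0.24 to 0.04) and -0.01 for siTET3 against siTET2 (-0.16 to 0.13), none past the test. In the mean of the depletions, 16.5% of all features were higher and 24.2% lower. Among 11 neuronal markers, 3 were higher in that mean (STMN2, MAPT and SYP), 1 was lower (NEUROG2) and 7 did not pass the test. Their summed intensity was 1986 to 2012 on the siNTC arrays and 3038 to 3816 on the depletion arrays, but without STMN2, which encodes a regulator of neuronal microtubules and rose by 1.01, the sums were 602 to 618 and 604 to 642. PAX6, NEUROG2, SOX1, ELAVL4 and SYP were not above background, nor was MAPT on either siNTC array (4.915 and 4.904). The part of STMN2 or of such cells in the NNAT change was not tested.

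BLCAP, which encodes a small protein first described as lost in bladder cancer, is transcribed from both copies in most tissues and shows allelic bias in brain. Its RNA was lower in every depletion, but by far less than that of the gene nested in it. The siNTC arrays gave 9.44 and 9.50. Levels were 8.98 and 8.95 in siTET1, 8.86 and 8.83 in siTET2, and 8.97 and 8.98 in siTET3, with no overlap between siNTC and any depletion. BLCAP thus stood at 70.6% of siNTC in siTET1 (log2 change -0.50 ± 0.050, adjusted p = 5.17e-06 in limma). In siTET2 it stood at 64.9% (-0.62, 6.79e-07) and in siTET3 at 71.0% (-0.49, 5.47e-06). No difference between depletions passed the test. Of the promoter windows listed for BLCAP in RefSeq, the one with the most CG dinucleotides is shown, because CG is the site of the mark that TETs oxidise. A window runs from 250 bases before to 50 after a transcript start, and CG is written in capitals. The BLCAP window (chr20:37527683-37527982, GRCh38.p14, minus strand) holds 30 CG, a number that 22.4% of 35116 such windows reach, with a median of 14.
BLCAP: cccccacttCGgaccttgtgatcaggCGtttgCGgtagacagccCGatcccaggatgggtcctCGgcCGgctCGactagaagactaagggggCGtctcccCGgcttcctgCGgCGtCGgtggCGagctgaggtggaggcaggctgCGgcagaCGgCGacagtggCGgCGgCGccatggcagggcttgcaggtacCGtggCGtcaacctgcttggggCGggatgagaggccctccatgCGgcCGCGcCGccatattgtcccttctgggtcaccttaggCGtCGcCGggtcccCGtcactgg

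INPP5F encodes an inositol phosphatase that acts on membrane phosphoinositides during endosome recycling, and of the 10 genes it rose most in each depletion. The gene lies at chr10:119726050-119829147, and its imprinted transcript is a short form from an internal start. Its levels were 8.14 and 8.20 in siNTC. They were 8.97 and 8.93 in siTET1, 8.76 and 8.89 in siTET2, and 8.69 and 8.63 in siTET3. All depletion arrays were above both siNTC arrays, and the siTET1 arrays were the highest. The level was 172% of siNTC in siTET1 (interval 157% to 188%), or 0.78 ± 0.061 in log2 change (limma adjusted p = 6.77e-07). It was 158% in siTET2 (0.66, adjusted p = 2.39e-06) and 140% in siTET3 (0.49, 3.29e-05). The difference of siTET3 against siTET1 passed the test at -0.29 ± 0.061 (adjusted p = 0.00711), but not without siTET1 replicate 1 (-0.27, adjusted p = 0.0664). The differences of siTET2 against siTET1 (-0.12, interval -0.25 to 0.01) and of siTET3 against siTET2 (-0.17, -0.30 to -0.04) did not pass it. The array gives 1 value for the gene, so the full-length and the short form were not separated. The 2 annotated promoter windows are shown because they differ in CG content. The upstream window (chr10:119726246-119726545, plus strand) holds 34 CG, reached by 15.6% of windows. It begins after the first base of the gene (119726050), so it does not cover the start of a transcript that begins there. The internal window (chr10:119819019-119819318, plus strand) holds 9, reached by 58.4%. Which form each window serves was not determined here.
INPP5F upstream: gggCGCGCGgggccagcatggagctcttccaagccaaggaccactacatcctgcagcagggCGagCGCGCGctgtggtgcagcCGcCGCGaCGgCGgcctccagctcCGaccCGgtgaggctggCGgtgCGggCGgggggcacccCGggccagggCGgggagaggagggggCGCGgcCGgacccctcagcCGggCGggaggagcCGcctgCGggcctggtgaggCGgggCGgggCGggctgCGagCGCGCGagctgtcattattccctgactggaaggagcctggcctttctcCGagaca
INPP5F internal: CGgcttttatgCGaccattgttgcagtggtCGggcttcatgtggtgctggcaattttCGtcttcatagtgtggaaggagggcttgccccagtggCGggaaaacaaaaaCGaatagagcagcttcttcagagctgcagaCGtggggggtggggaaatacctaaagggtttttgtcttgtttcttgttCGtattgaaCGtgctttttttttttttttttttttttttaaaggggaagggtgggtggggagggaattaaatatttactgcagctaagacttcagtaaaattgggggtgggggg

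PEG10 fell in all 3 depletions, most in siTET3. It is derived from a retrotransposon, encodes a Gag-like protein that is needed for the placenta in mouse, and lies at chr7:94656325-94669695. On the siNTC arrays it was at 12.01 and 11.95. It was at 11.59 and 11.59 in siTET1, 11.35 and 11.43 in siTET2, and 11.10 and 11.30 in siTET3. No depletion array reached siNTC, and the arrays fell into the order siTET1, siTET2, siTET3 without overlap. Against siNTC the level was 76.2% in siTET1 (log2 change -0.39 ± 0.055, adjusted p = 0.000102 in limma). The level was 66.4% in siTET2 (-0.59, adjusted p = 2.75e-06) and 58.1% in siTET3 (-0.78, 2.74e-07). The step from siTET1 to siTET3 passed the test at -0.39 (adjusted p = 0.000595). The step from siTET2 to siTET3 was -0.19 (adjusted p = 0.0402), and it was the least firm of the between-depletion calls: without siTET3 replicate 1 it was -0.09 (adjusted p = 0.295) and without siTET2 replicate 2 -0.15 (0.298). It also missed the threshold without siTET2 replicate 1 (0.0938) or either siTET1 array (0.0621 and 0.062). The same held with only the 4 arrays compared (0.0748), with no intensity trend (0.187) and with all transcript clusters (0.174). The step from siTET1 to siTET2 was -0.20 (interval -0.32 to -0.08) and missed the threshold (adjusted p = 0.0535), which it passed without either siTET3 array (0.00651 and 0.00662). Of 9 trophectoderm markers, genes of the placental lineage, 2 were lower in the mean of the depletions, against 24.2% of all features. The other 7 did not pass the test. HAND1 fell by 0.88, and GATA3 was at 5.83 and 5.75 in siNTC and at 5.29 to 5.62 in the depletions. CDX2 and TFAP2C changed by -0.02 and -0.01, and KRT7, ELF5, CGA, ERVW-1 and PGF were not above background. The summed intensity of the 9 markers was 877 to 895 in siNTC and 780 to 866 in the depletions, and without HAND1 744 to 762 and 709 to 789. Their part in the PEG10 change was not tested.

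SGCE, which encodes epsilon-sarcoglycan and is paternally expressed too, starts 192 bases from PEG10 and is read in the other direction. It did not follow PEG10. SGCE was at 9.06 and 9.10 in siNTC, 9.62 and 9.67 in siTET1, 9.39 and 9.37 in siTET2, and 9.02 and 9.12 in siTET3. Its arrays were highest in siTET1, and those of siTET3 overlapped siNTC. The log2 change was 0.57 ± 0.051 in siTET1 (adjusted p = 2.08e-06 in limma), 0.30 in siTET2 (0.000417) and -0.01 in siTET3 (0.899). All 3 differences between depletions passed the test, at -0.27 for siTET2 against siTET1, -0.58 for siTET3 against siTET1 and -0.31 for siTET3 against siTET2. Both genes thus had their lowest depletion mean in siTET3 and their highest in siTET1, but PEG10 was below siNTC in each depletion, while SGCE was above it in siTET1 and siTET2. On the other side of PEG10 the nearest measured gene, PPP1R9A, changed by -0.09 and -0.10 in siTET1 and siTET2, not past the test, and by -0.32 in siTET3 (adjusted p = 0.0219).

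**Figure D2:**
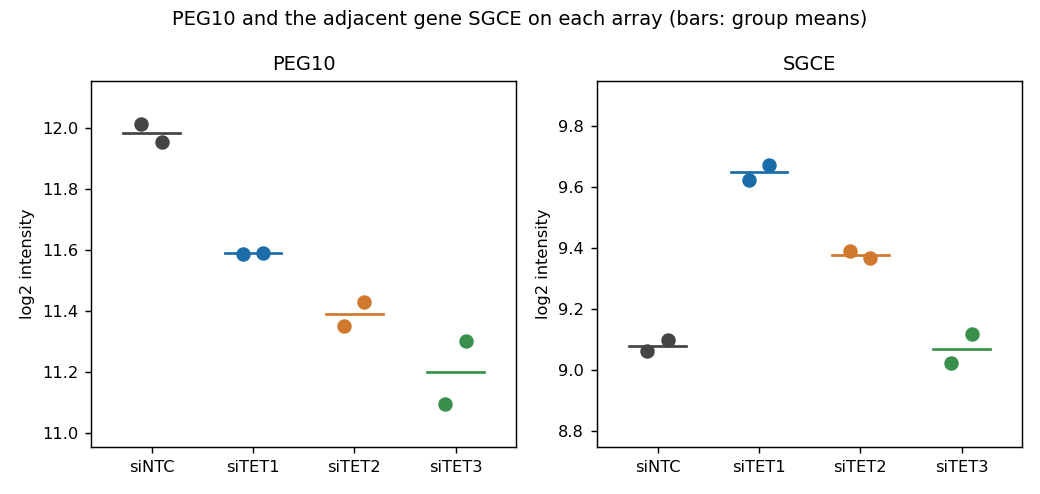
Log2 intensity of PEG10 (left) and SGCE (right) on each of the 8 arrays, with bars at the group means and the same span on both axes. PEG10 falls from 12.01 and 11.95 in siNTC to 11.10 and 11.30 in siTET3, while SGCE is above siNTC in siTET1 and siTET2 and level with it in siTET3.

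MEST encodes a hydrolase-like protein of mesoderm and placenta (chr7:130486175-130506465), and its RNA was lower in siTET1 and siTET2, with a smaller change in siTET3. It was at 10.91 and 10.77 in siNTC. It was at 10.50 and 10.54 in siTET1, 10.41 and 10.38 in siTET2, and 10.74 and 10.69 in siTET3. The siTET3 arrays lay just under the lower siNTC array and well above the other depletions. MEST stood at 80.1% of siNTC in siTET1 (log2 change -0.32 ± 0.048, adjusted p = 0.000153 in limma) and at 73.5% in siTET2 (-0.44, 8.56e-06). In siTET3 the change was -0.13 (interval -0.23 to -0.02) and missed the threshold (adjusted p = 0.0567 in limma). It passed with genes above background only (0.0394) and with the replicate block (0.0471). With an array left out it ranged from -0.19 without siNTC replicate 2 to -0.06 without siNTC replicate 1. The difference itself was tested: siTET3 was above siTET2 by 0.32 ± 0.048 (adjusted p = 0.000891) and above siTET1 by 0.20 (adjusted p = 0.0167). The latter did not pass without siTET1 replicate 1 (adjusted p = 0.118), siTET1 replicate 2 (0.0694) or siTET3 replicate 1 (0.0943). Nor did it pass with no intensity trend (0.106) or with all transcript clusters (0.0899). MEST has an upstream start and a cluster of starts further in, where the paternally used promoter lies. The upstream window with the fewest CG and the inner window with the most are shown, so their contrast follows from the choice. The upstream one (chr7:130485925-130486224, plus strand) holds 13 CG, reached by 51.7% of windows, and the inner one (chr7:130491835-130492134, plus strand) holds 25, reached by 32.0%. Another upstream window (chr7:130486097-130486396) holds 22 CG (37.7%), and another inner one (chr7:130491079-130491378) holds 16 (47.5%).
MEST upstream: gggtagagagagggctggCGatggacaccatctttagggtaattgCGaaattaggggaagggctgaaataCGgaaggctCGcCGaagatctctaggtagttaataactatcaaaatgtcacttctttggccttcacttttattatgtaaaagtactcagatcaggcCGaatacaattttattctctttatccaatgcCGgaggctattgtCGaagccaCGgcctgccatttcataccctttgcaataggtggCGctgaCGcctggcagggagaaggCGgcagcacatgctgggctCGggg
MEST inner: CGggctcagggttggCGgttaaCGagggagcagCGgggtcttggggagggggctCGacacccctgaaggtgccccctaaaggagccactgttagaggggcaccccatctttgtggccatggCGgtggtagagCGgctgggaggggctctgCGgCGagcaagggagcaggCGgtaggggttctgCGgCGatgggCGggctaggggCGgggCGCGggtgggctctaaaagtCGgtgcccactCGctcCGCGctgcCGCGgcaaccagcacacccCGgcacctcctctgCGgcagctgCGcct

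DLK1 and MEG3 share an imprinted domain on chromosome 14, in which DLK1 (chr14:100726892-100738224) encodes a Notch-like protein that restrains differentiation and MEG3 (chr14:100826108-100861026) a non-coding RNA. DLK1 was at 6.05 and 6.23 in siNTC. The levels were 6.70 and 6.47 in siTET1, 6.44 and 6.57 in siTET2, and 6.61 and 6.57 in siTET3. Every depletion array was above both siNTC arrays, with replicates up to 0.23 apart. The log2 change was 0.45 ± 0.11 in siTET1 (adjusted p = 0.00504 in limma), 0.36 in siTET2 (0.0165) and 0.45 in siTET3 (0.00478). These calls were the least firm of the 10 genes against siNTC: without siNTC replicate 1 they had adjusted p of 0.0544, 0.133 and 0.0521. The siTET1 call also failed without siTET1 replicate 1 (0.0758) and the siTET2 call without siTET2 replicate 2 (0.147). With all transcript clusters the siTET2 call of DLK1 missed the threshold as well (adjusted p = 0.0528 in limma). MEG3 was not above background on any array, at 4.77 and 4.63 in siNTC and at 4.63 to 4.84 in the depletions, so no change is given for it. RTL1, MIR127 and MIR136, the nearest measured genes beyond MEG3, were not above background either.

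H19 and IGF2 are the classical pair of chromosome 11, where H19 is a maternal non-coding RNA and IGF2 a paternal growth factor that share enhancers. The cluster of H19 was at 8.20 and 8.21 in siNTC. It was at 8.16 and 8.17 in siTET1, 8.18 and 8.22 in siTET2, and 8.24 and 8.28 in siTET3, a span of 0.12 over the 8 arrays. Its log2 changes were -0.04 in siTET1 (interval -0.16 to 0.09), -0.00017 in siTET2 (-0.13 to 0.13) and 0.06 in siTET3 (-0.07 to 0.18), none past the test. Under quantile normalization of the deposited values the change in siTET3 was 0.16 and passed (adjusted p = 0.0418 in limma). The difference of siTET3 against siTET1 was 0.09 and not past the test, but 0.18 and past it under that normalization (0.048). This cluster is also annotated to RPS12, a ribosomal protein gene. The cluster of IGF2 was at 5.17 and 5.13 in siNTC and at 5.16 to 5.29 in the depletions, and it was above background on 1 of the 8 arrays. No change is given for it.

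The IGF pathway list held receptors, binding proteins and adaptors, but also genes such as IGF1, IGF2BP3 and PLAG1, with 21 genes measured. In siTET1 2 were higher and 4 lower, against 15.6% and 18.7% of all features. In siTET2 they were 5 and 1, against 14.4% and 21.8%, and in siTET3 2 and 8, against 13.8% and 22.3%, with IGFBP5, which was not above background, among the 8. IGF1R, the signalling receptor of IGF1 and IGF2, changed by -0.22 in siTET1 (adjusted p = 0.0011 in limma), -0.11 in siTET2 (0.0617) and -0.48 in siTET3 (2.01e-06). It was lower in siTET3 than in siTET1 by -0.25 and than in siTET2 by -0.37. INSR, the insulin receptor, was lower in siTET3 than in siTET1 by -0.44 and than in siTET2 by -0.35. IGFBP2, which binds IGFs outside the cell, was higher in siTET2 than in siTET1 by 0.43 and lower in siTET3 than in siTET2 by -0.56. IGF2BP3, an RNA-binding protein named for IGF2 mRNA, rose by 0.31 in the mean of the depletions and IGFBP7, a secreted binding protein, by 0.36. The adaptors IRS4 and IRS1 changed by -0.38 and -0.29 and IGFBP4 by -0.21 in that mean, all past the test. Taken singly, IRS4 and IRS1 did not pass in siTET2 (adjusted p = 0.0597 and 0.577 in limma). IGFBP7 and IGFBP4 did not pass in siTET1 (0.0862 and 0.331).

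PEG3, a zinc finger protein gene on chromosome 19 (chr19:56810082-56840726), was read from the cluster it shares with ZIM2. It was at 8.84 and 8.94 in siNTC, 8.83 and 8.93 in siTET1, 8.83 and 8.73 in siTET2, and 8.75 and 8.81 in siTET3. Arrays of siTET1 overlapped siNTC, and those of siTET2 and siTET3 lay below it. The log2 changes of -0.02, -0.11 and -0.11 did not pass the test (adjusted p = 0.876, 0.188 and 0.175 in limma). The intervals reached from -0.15 to 0.12 in siTET1 and from -0.25 to 0.02 in siTET3.

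**Figure D3:**
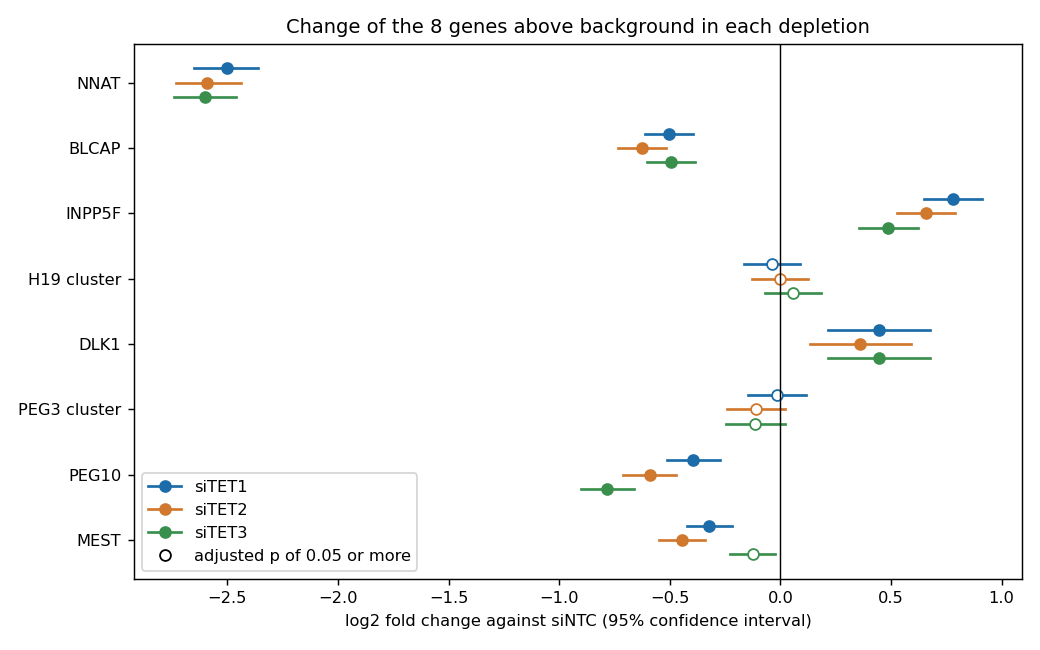
Log2 fold change against siNTC with its 95% confidence interval for the 8 imprinted genes above background, in siTET1, siTET2 and siTET3, with open circles where the adjusted p was 0.05 or more. NNAT stands apart at -2.50 to -2.60, the other called changes lie between -0.78 and 0.78, and the clusters of H19 and PEG3 lie close to 0.

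The depletions were also compared with each other. For siTET2 against siTET1 no imprinted gene passed the test in limma, against 4.13% of all features lower and 2.33% higher. BLCAP, PEG10 and MEST had an unadjusted p under 0.05, a looser cut for which no share over all features is given. For siTET3 against siTET1, INPP5F and PEG10 were lower and MEST higher, against 9.93% and 3.82% of all features. For siTET3 against siTET2, PEG10 was lower and MEST higher, against 7.24% and 4.94%. PEG10 and MEST thus differed in opposite directions between siTET3 and both other depletions. PEG10 against siTET2 and MEST against siTET1 did not stay past the test in every alternative fit.

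The 5 nearest measured genes on each side of each domain were read in the same way. Around NNAT and BLCAP the 10 neighbours had a median log2 change of -0.03 in siTET1, -0.14 in siTET2 and -0.06 in siTET3. The nearest above background, SRC, which encodes a tyrosine kinase, changed by 0.12, 0.11 and -0.02, none past the test. MANBAL, named here after its values were seen, fell by 0.56, 0.60 and 0.32. Around INPP5F the nearest genes both moved against it: BAG3, a co-chaperone gene, fell by 0.26, 0.32 and 0.30, and MCMBP, which encodes a partner of the replicative helicase and lies 293 bases from INPP5F, fell by 0.29, 0.40 and 0.15. Further out GRK5, a receptor kinase gene also named after its values were seen, rose by 0.88, 0.94 and 0.82. Around PEG10, beside SGCE and PPP1R9A, GNG11 (a G protein subunit gene, also named after its values were seen) changed by -0.86, -1.18 and -1.20, more than PEG10 itself. Around DLK1 and MEG3 no neighbour was higher and 2 were lower in each depletion: WARS1, and with it MIR127 or SNORD113-3, which were not above background. Around PEG3 at most 1 of 10 neighbours was higher and at most 2 lower, and around MEST at most 2 each way. CEP41, the nearest measured gene before MEST, rose by 0.768, 0.415 and 0.478. Around H19 and IGF2 at most 1 of 10 was higher and 0 lower in each depletion. The higher one, MRPL23, changed by 0.41, 0.28 and 0.20, the last not past the test. CEP41 and MRPL23 were also named after their values were seen. Of all features, 15.6%, 14.4% and 13.8% were higher in siTET1, siTET2 and siTET3, and 18.7%, 21.8% and 22.3% lower. With 10 neighbours a domain, nothing particular to these domains is read from such counts.

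**Figure D4:**
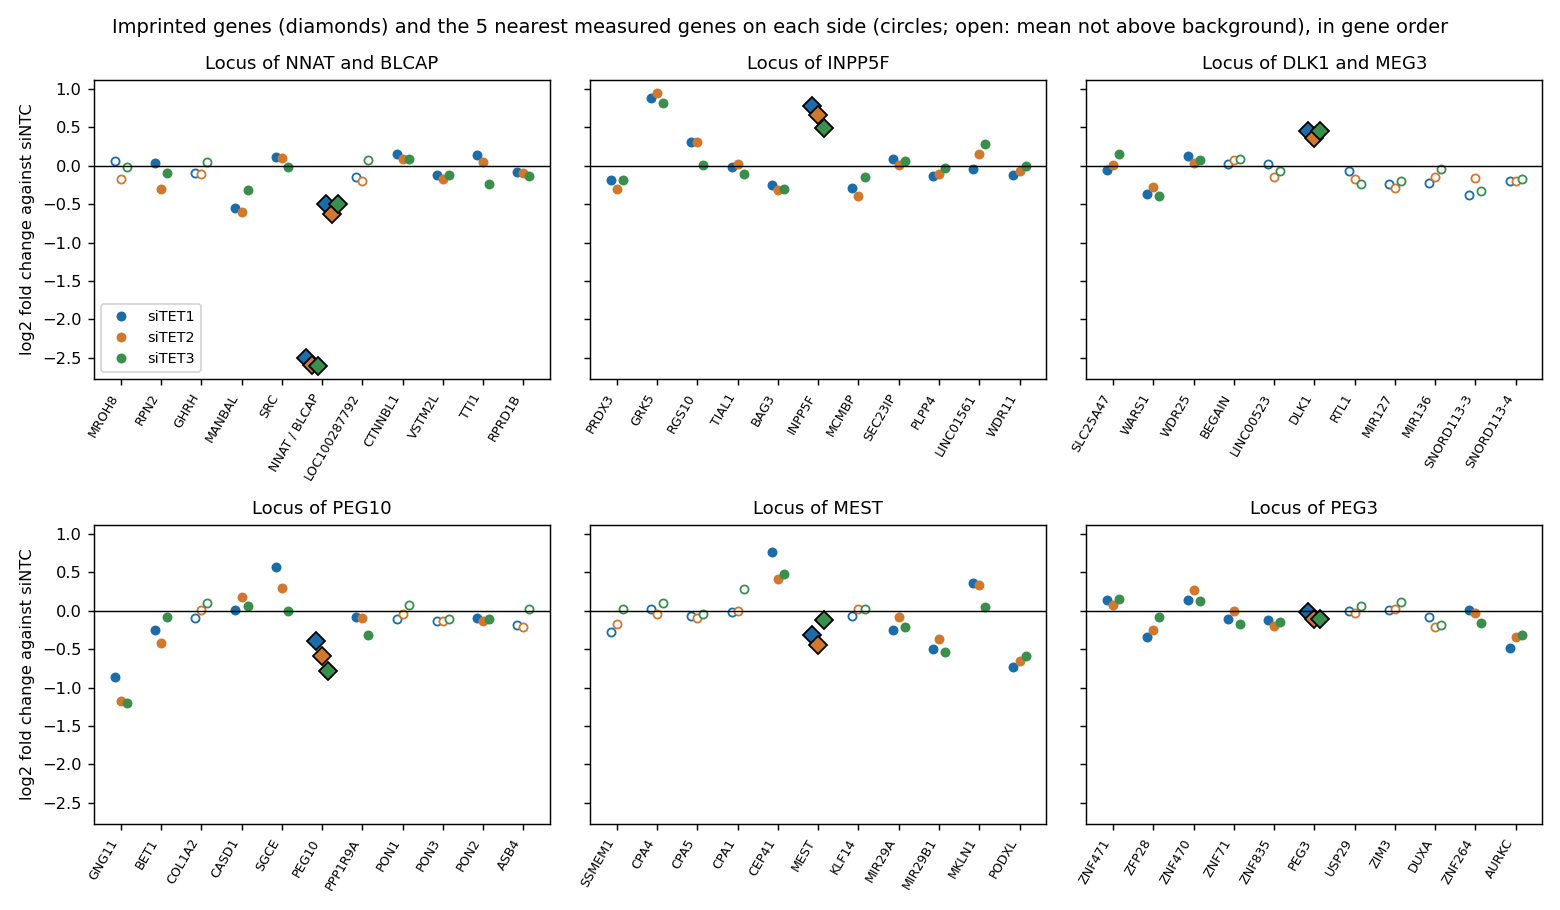
Log2 fold change against siNTC of imprinted genes (diamonds) and of the 5 nearest measured genes on each side (circles, open where the mean was not above background), in gene order, for 6 domains and 3 depletions. NNAT lies far under its neighbours, and SGCE lies above 0 beside PEG10 in siTET1 and siTET2; MEG3 and the pair of H19 and IGF2 are not drawn.

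For the members with a called change of at least 1.5-fold, the genes with the most similar profile over the 8 arrays were listed by the root mean square distance of centred log2 values. For NNAT these were IL13RA2 (distance 0.136), ZNF826P (0.151) and FLT1 (0.159). For BLCAP they were NCAPD3 (0.0179), BUB1B (0.0289) and GOLPH3L (0.0332), and for INPP5F TNS3 (0.05), TDRKH (0.0514) and SFXN1 (0.0537). For PEG10 they were ITPR2 (0.0345), PDPN (0.0443) and ICA1L (0.0482). The points share arrays and normalization, and the likeness is a description with no test.

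Other imprinted genes were taken as a list of 40 measured genes. In the mean of the depletions 6 were higher, 6 were lower (WT1 among them, which was not above background) and 28 passed in neither direction, against 16.5% and 24.2% of all features, with a median log2 change of 0.003 against -0.03 over all features. TFPI2, an imprinted protease inhibitor gene of the domain that holds PEG10 and SGCE, fell by 0.91, 0.73 and 0.75 in siTET1, siTET2 and siTET3 (adjusted p = 1.15e-05, 6.19e-05 and 5.48e-05 in limma), and GNG11 is a near neighbour of it, the second measured gene on one side. FAM50B fell by 0.59, 0.53 and 0.48. ZNF597 and ZDBF2 changed by -0.30 and -0.27 in the mean of the depletions, and around ZDBF2 7 of 10 neighbours were lower as well, with a median of -0.36. PHLDA2, a placental growth restrainer, rose by 0.43 in that mean and LPAR6, a receptor for lysophosphatidic acid, by 0.32. These 2 did not pass the test in siTET1 (adjusted p = 0.0522 and 0.164 in limma), and ZDBF2 did not in siTET2 (0.071). GRB10, an adaptor that dampens insulin and IGF signalling, was higher in siTET1 by 0.37 and in siTET2 by 0.38, like SGCE, and changed by -0.03 in siTET3, which did not pass the test. It was lower in siTET3 than in siTET1 by -0.39 (adjusted p = 0.000175) and than in siTET2 by -0.41 (0.000127).

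Genes that set, protect or read imprints were measured as a list of 20, of which 5 rose, 5 fell and 10 did neither in the mean of the depletions, against 16.5% of all features higher and 24.2% lower. DPPA3, which protects imprints from oxidation in the zygote, rose by 1.63 (adjusted p = 5.51e-13 in limma), DNMT3L, the cofactor of de novo methylation, by 0.64 and ARID4B, a chromatin protein tied to imprinting in mouse, by 0.58. UHRF1, which directs maintenance methylation, changed by -0.43, ZFP42 by -0.29 and SETDB1, a histone methyltransferase, by -0.21. In siTET1 alone UHRF1 changed by -0.24, not past the test (adjusted p = 0.0636 in limma). ZNF445, a zinc finger protein that binds imprinting control regions, changed by 0.19 in the mean, by 0.38 in siTET1 (adjusted p = 0.00386), and by 0.13 and 0.07 in siTET2 and siTET3, not past the test. SMCHD1, a chromatin protein that acts at some imprinted clusters, rose by 0.28 in the mean and was higher in siTET3 than in siTET1 by 0.39. In siTET1 SMCHD1 changed by 0.10, not past the test (adjusted p = 0.102 in limma). CBX5, a heterochromatin protein gene, was lower in siTET3 than in siTET1 by -0.43 and than in siTET2 by -0.19.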

How the data were processed

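The authors deposited log2 intensities, normalized by them between arrays. The submitters' processing notes name Partek. How background was corrected, how probes were summarized and which version was used is not given in the sources here. Of 33297 clusters, those with 1 symbol were used (18417 genes; the brightest cluster stood for a gene), plus the 3 shared clusters of H19, IGF2 and PEG3. All 8 arrays were fitted by group in limma 3.58.1 (R 4.3.3; lmFit and eBayes, trend in intensity, two-sided tests), with Benjamini-Hochberg adjustment over 18420 features and calls at 0.05. Changes of the members are given only above background, where 12751 features lay (69.2%); counts over lists, neighbours and all features include genes below it. The number of arrays limits precision. Nothing says that replicates were separate cultures, so p-values cover only the spread of these arrays, which may be technical. Replicate numbers were not taken to pair the arrays in the main fit. The members and lists were chosen with earlier results of these data known.

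All 10 members were named. For those called at 1.5-fold or more in a pairwise comparison, the nearest neighbours and the 3 most similar genes were named. From 3 lists (other imprinted genes, imprint regulators, IGF pathway), up to 8 genes with the widest called change in the mean of the depletions and up to 3 per comparison between depletions were named. The fit was tested on simulated data. Promoter windows came from RefSeq (GRCh38.p14) and matched 5 members. Figures used matplotlib 3.10.9 in Python 3.11.15. Alternatives were other normalizations, fits, filters and thresholds, a replicate block, and each array left out.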

Additional observations from a re-analysis of the deposited data

Results flagged for a closer look

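The following genes differed between 2 depletions by a test of the difference itself in limma, at an adjusted p under 0.05 over all features, and are given as log2 differences. INPP5F was at -0.29 in siTET3 against siTET1. PEG10 was at -0.39 in siTET3 against siTET1 and at -0.19 against siTET2. MEST was at 0.20 in siTET3 against siTET1 and at 0.32 against siTET2.

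Among other imprinted genes, SGCE was at -0.27 in siTET2 against siTET1, at -0.58 in siTET3 against siTET1 and at -0.31 in siTET3 against siTET2. GRB10 was at -0.39 in siTET3 against siTET1 and at -0.41 against siTET2. ZDBF2 was at -0.29 in siTET3 against siTET2 and at -0.22 against siTET1. DIO3 was at 0.36 in siTET3 against siTET1, but neither siTET1 array (4.95 and 5.02) was above background (5.21), so that value is no measured fold.

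Among imprint regulators, CBX5 was at -0.24 in siTET2 against siTET1, at -0.43 in siTET3 against siTET1 and at -0.19 in siTET3 against siTET2. SMCHD1 was at 0.17, 0.39 and 0.22 in these comparisons. HELLS was at -0.18 in siTET2 against siTET1 and at 0.25 in siTET3 against siTET2. ZNF445 was at -0.31 in siTET3 against siTET1.

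In the IGF pathway, IGFBP2 was at 0.43 in siTET2 against siTET1 and at -0.56 in siTET3 against siTET2. INSR was at -0.44 in siTET3 against siTET1 and at -0.35 against siTET2. IGF1R was at -0.25 in siTET3 against siTET1 and at -0.37 against siTET2.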

How the results depend on the processing

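Of 28 changes of the imprinted genes past the test, 22 stayed past it under every alternative and none changed direction. The other 6 were those of DLK1 in each depletion, of INPP5F and MEST in siTET3 against siTET1, and of PEG10 in siTET3 against siTET2. Each pairwise change had 16 alternatives, while changes in the mean of the depletions had no fit with only the 4 arrays compared. With at least 1.5-fold required, the number of called genes was 2 in siTET1, 2 in siTET3, 3 in the mean of the depletions, and 0 in siTET3 against siTET1 and against siTET2. For siTET2 against siTET1 it was 0, but 2 with only the 4 arrays of that comparison, 1 with genes above background only, 1 with the replicate block and 0 to 1 with an array left out. For siTET3 against siTET1 it was 1 to 3 with an array left out. For siTET3 against siTET2 it was 1 with 4 arrays, with no trend and with all clusters, and 1 to 2 with an array left out. With the replicate block MEST passed in siTET3 (adjusted p = 0.0471), and beside this and PEG10 in siTET2 against siTET1 (0.0403) the block changed no call. As a check of pairing, deviations of same-numbered arrays correlated at -0.052 to 0.25. The highest was siTET1 with siTET3, and the other pairs of groups reached at most 0.045.

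Values near 0 changed sign without passing the test. Under quantile normalization PEG3 in siTET1 was at 0.001596, H19 in siTET2 at 0.04083, NNAT in siTET3 against siTET1 at 0.0003219 and against siTET2 at 0.04371, and PEG3 in siTET3 against siTET2 at 0.03013. With array medians subtracted, H19 in siTET2 was at 0.01538, and NNAT and PEG3 in siTET3 against siTET2 at 0.01864 and 0.03105. With an array left out, PEG3 in siTET1 ran from -0.06506 to 0.03266, H19 in siTET2 from -0.0182 to 0.01787 and in the mean of the depletions from -2.333e-05 to 0.01353. DLK1 ran from -0.1975 to 0.03057 in siTET2 against siTET1 and from -0.1136 to 0.1144 in siTET3 against siTET1. In siTET3 against siTET1 BLCAP ran from -0.008815 to 0.02572. In siTET3 against siTET2 NNAT ran from -0.05957 to 0.03065 and PEG3 from -0.05056 to 0.04646. The causes were not tested.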
